A study of Mus musculus with 7 samples.

Results

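The matrix metalloproteases (MMPs), the tissue inhibitors of metalloproteases (TIMPs), and the ADAM and ADAMTS proteases were described in embryonic mouse choroid plexus after exposure to red blood cells. Members were all genes of the count table whose symbol was Mmp, Timp, Adam or Adamts followed by a number, with an optional letter for MMP and ADAM genes. The rule gave 80 of 40873 genes, made up of 23 MMP, 4 TIMP, 34 ADAM and 19 ADAMTS genes.

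MMPs are zinc enzymes that cut collagens, laminins and other matrix proteins, and TIMPs block them by binding the active site. ADAM proteins sit in the cell membrane, where the active members shed the outer parts of growth factors, receptors and adhesion molecules. ADAMTS proteins are secreted and cut proteoglycans, procollagens and other matrix proteins. In the brain, MMPs are known for opening barriers between blood and nervous tissue during inflammation, and MMP8 and MMP9 are stored in neutrophil granules.

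Both groups were wild-type embryos of CD-1, an outbred mouse stock. Choroid plexus of their lateral ventricles was harvested and pooled 24 h after treatment, at E15.5. One group (3 libraries) received red blood cells, washed from the blood of an E14.5 donor litter, and the control group (4 libraries) received saline. Poly(A) RNA was sequenced, and the labels put all 7 libraries in batch 1. The labels call the libraries biological replicates but do not say how many embryos or litters each holds, and the p-values refer to the spread among them, which may be technical.

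Summed counts ran from 4393860 to 8386928 per library, and a count of 3, the upper limit that a count of 0 allows, corresponded to between 0.358 and 0.683 CPM (counts scaled to the library's total, counting error only). The choroid plexus epithelium was present by its markers, whose summed level was 17977 to 19592 CPM with red blood cells and 18210 to 23550 CPM with saline over 10 genes. Of these 10, 9 had negative fold changes (median log2 fold change -0.08). At an unadjusted edgeR p under 0.05, 4 were lower (40% of the list, against 4.32% of all genes). EdgeR and limma-voom called 0 (0.0605% of all genes for each), and DESeq2 called 2, Aqp1 and Slc4a5 (1.39% of all genes). Several libraries stood apart by lists of cell type markers. Red blood cells 2 had a summed level of 401 CPM over 13 neutrophil and monocyte markers, against 4.49 to 45.6 CPM in the other 6 libraries. Lcn2 alone made up 307 of the 401 CPM, and 25.7 of the 45.6 CPM, which was the sum of saline 4. Red blood cells 3 had 2999 CPM of fibroblast and mesenchyme markers (10 genes), against 1651 to 2139 CPM elsewhere. Saline 4 held 228 counts of Plg, the plasminogen gene expressed by liver, which had 0 counts in every other library. In bulk tissue, fewer cells of a type and less RNA per cell cannot be told apart.

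Of the 80 members, 17 had 0 counts in every library, 18 had some counts but fell below the count filter, and 45 were tested. All 19 ADAMTS genes had at least 1 count, and 17 were tested. The 17 genes without a count were 12 ADAM genes, among them the sperm and testis genes Adam18, Adam20, Adam24 and Adam30, and the MMP genes Mmp1a, Mmp1b, Mmp20, Mmp21 and Mmp27. Some of them are copies of one another (Mmp1a and Mmp1b, Adam6a and Adam6b, Adam26a and Adam26b), and the treatment of reads that match several genes is not stated in the labels, so their 0 counts are uncertain. Below the filter, the most counts were those of Adam33, with 14, 8 and 6 in red blood cells 1 to 3 and 7, 14, 11 and 6 in saline 1 to 4, followed by Mmp12 (37 in all), Adamts19 (36), Mmp8 (35) and Adam32 (23).

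A small number of genes carried most of the signal. Levels are given here as CPM per kb of exon, which allows genes of different length to be compared. With saline, Timp2 had 160 ± 12.05 CPM per kb and Timp3, whose product binds to the matrix, had 131 ± 9.55 CPM per kb (SD, n = 4). The saline libraries of Timp2 (149 to 173 CPM per kb) did not overlap those of Timp3 (125 to 145 CPM per kb), whereas those of Mmp2 (116 to 131 CPM per kb), the gelatinase of fibroblasts, overlapped Timp3. Adamts1, which cuts the proteoglycans versican and aggrecan, followed with 100.02 ± 8.76 CPM per kb and overlapped neither Timp3 nor Mmp2.

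Below them came the sheddase gene Adam10 (67.3 ± 5.07 CPM per kb), the membrane-bound MMP genes Mmp15 (60.2 ± 3.55 CPM per kb) and Mmp14 (50.5 ± 2.43 CPM per kb), and the sheddase genes Adam9 (46.3 ± 1.44 CPM per kb) and Adam17 (38.6 ± 2.46 CPM per kb) (SD, n = 4). Mmp14 encodes the membrane enzyme that activates pro-MMP2. The ranges of Mmp15 and Mmp14 did not overlap (55.0 to 62.6 and 48.2 to 53.9 CPM per kb), and the lowest library of Mmp14 (48.2 CPM per kb) lay just above the highest of Adam9 (48.1 CPM per kb). Mmp2, Mmp15 and Mmp14 together held 89.7% of the summed MMP level, Timp2 and Timp3 99.1% of the TIMP level, Adam10, Adam9 and Adam17 77.5% of the ADAM level, and Adamts1 alone 59.8% of the ADAMTS level. Adamts5, the aggrecanase gene, was next at 17.7 ± 2.03 CPM per kb, and every other member was below 12 CPM per kb with saline.

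**Figure D1:**
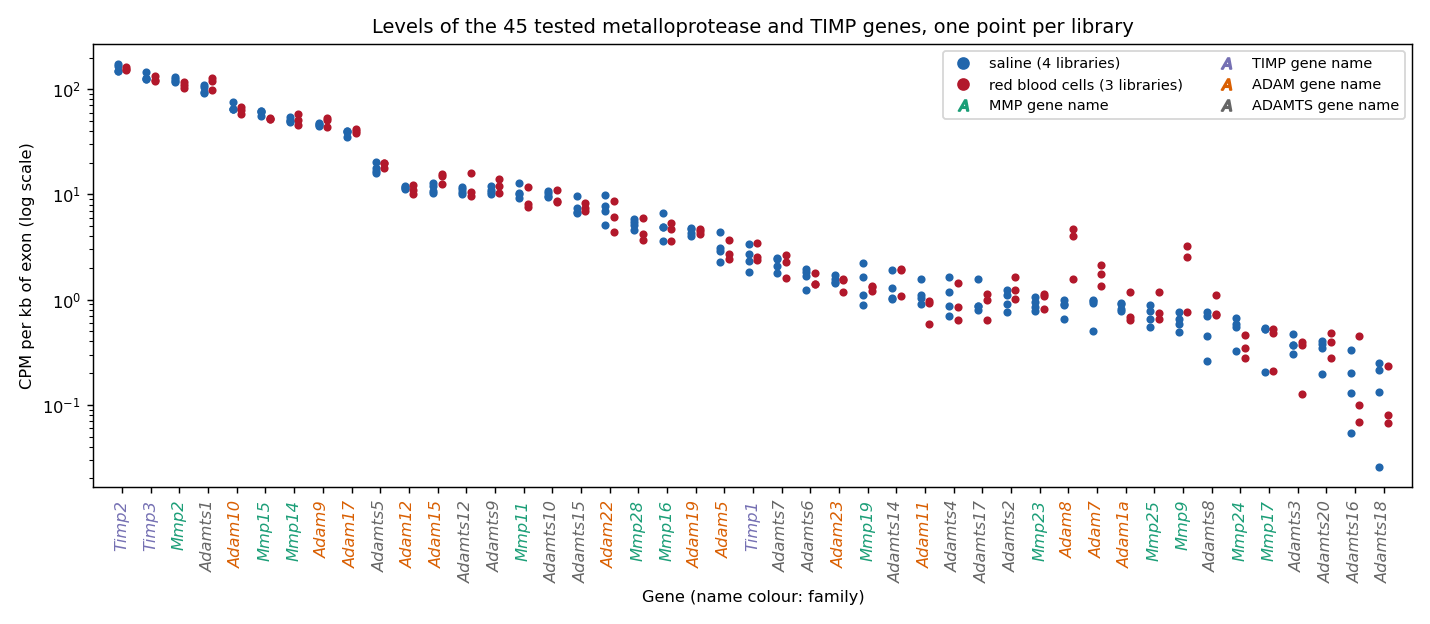
Levels of the 45 tested members in CPM per kb of exon (log axis), one point per library, ordered by the saline mean, with names coloured by family. Timp2 and Timp3 lead the order, and Adam8, Adam7 and Mmp9 lie in the lower part of the range, where 1 red blood cell library of Mmp9 is level with the saline points.

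No member passed the edgeR quasi-likelihood test between red blood cells and saline after adjustment over all genes tested (0 of 45, where 9 of 14869 genes, 0.0605%, passed). At an unadjusted p under 0.05 there were 6 members, 13.3% of the 45 tested against 9.54% of all genes. Of these, 4 were higher (Adam8, Mmp9, Adam7 and Adam15, against 5.22% of all genes) and 2 lower (Mmp15 and Mmp2, against 4.32%). DESeq2 called 2 of the 56 members it gave an adjusted p, Mmp9 and Adam8 (1.39% of all genes), and limma-voom called 0 of 45 (0.0605% of all genes). With edgeR, 1 member was called without a count filter (Adam8, 0.522% of all genes), at a threshold of 0.10 (Adam8, 0.309%), without red blood cells 1 (Mmp9, 0.112%) and without red blood cells 3 (Adam8, 1.86%). It called 0 members when red blood cells 2 (0.225%) or any saline library was left out (0.00681%, 0.00677%, 0.0068% and 0.0339% of all genes for saline 1 to 4), without both red blood cells 2 and saline 4 (0.267%), or with the replicate number as a block (0.0135%). The groups did not overlap for 4 members (8.89%), against 9.59% of all genes. The members' median log2 fold change was -0.04, beside 0.00 over all genes tested. It lay within 0.25 of 0 for 34 of 45 members (75.6%) and for 78.6% of all genes. The shares of members without overlap and of members near 0 were close to those of all genes.

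**Figure D2:**
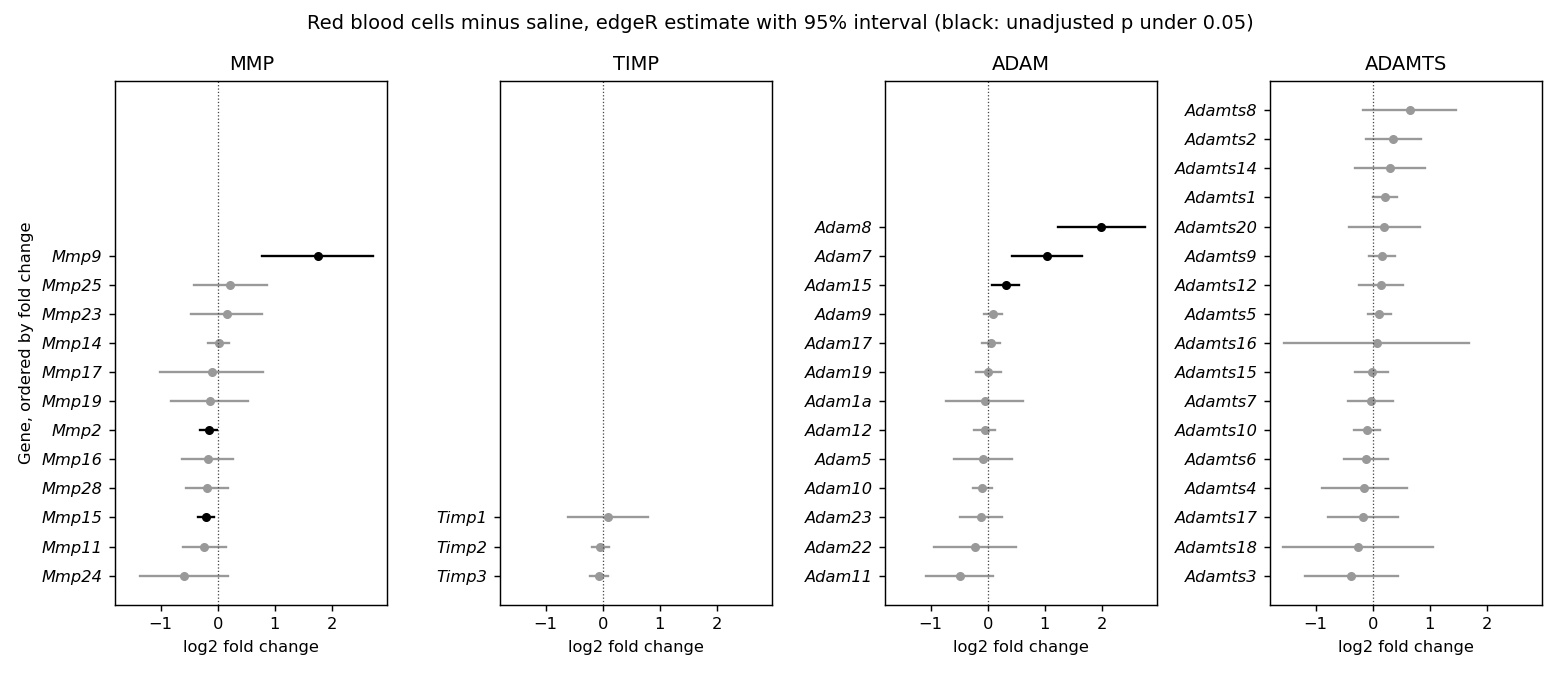
Log2 fold change (red blood cells minus saline) of the 45 tested members by family, points being edgeR estimates and lines 95% intervals, black where the unadjusted p was under 0.05. Adam8 and Mmp9 lie farthest from 0, the intervals of Timp2, Timp3, Adam10 and Adam17 are short and span 0, and those of scarce genes such as Adamts16 are wide.

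Adam8, an ADAM protease of leukocytes that sheds adhesion molecules, had the largest difference of the tested members. Its level was 16.8, 19.7 and 6.52 CPM in red blood cells 1, 2 and 3, and 4.14, 2.73, 3.83 and 3.71 CPM in saline 1 to 4. Every red blood cell library lay above every saline library, with red blood cells 3 nearest to them. The fold change was 3.99, with a log2 fold change of 2.00 ± 0.34 (SE, 95% interval 1.23 to 2.76) and an edgeR adjusted p of 0.0809. DESeq2 gave a log2 fold change of 2.00 with an adjusted p of 0.000148, and limma-voom one of 1.90 with an adjusted p of 0.168. In edgeR, Adam8 passed without red blood cells 3 (2.33, adjusted p = 0.000522) and not without any of the other 6 libraries (adjusted p up to 0.292), and its log2 fold change was 1.73 without both red blood cells 2 and saline 4 (adjusted p = 0.189). Adam8 shares 49 exon bases with Gm16201, a gene on the opposite strand, which had 5.90 to 7.11 CPM with red blood cells and 6.49 to 10.6 CPM with saline.

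Mmp9, the gelatinase of neutrophils and macrophages, had 2.89, 12.4 and 9.60 CPM in red blood cells 1, 2 and 3, and 2.51, 2.25, 2.87 and 1.85 CPM in saline 1 to 4. The groups did not overlap, but red blood cells 1 (23 counts) was level with saline 3 (24 counts in a deeper library). The fold change was 3.38, and the log2 fold change 1.76 ± 0.44 (SE, 95% interval 0.78 to 2.74) with an edgeR adjusted p of 0.170. DESeq2 gave an adjusted p of 0.0246 and limma-voom 0.437. Mmp9 passed in edgeR without red blood cells 1 (2.19, adjusted p = 0.0186), and its log2 fold change was 1.33 without red blood cells 2 (adjusted p = 0.433) and 1.24 without both that library and saline 4 (adjusted p = 0.555). The other gelatinase gene, Mmp2, had a negative fold change, given below.

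Markers of macrophages and neutrophils, cells known to express Adam8 and Mmp9, were read beside them. All 12 macrophage markers were tested and had positive fold changes (median log2 fold change 0.84), and their summed level was 343, 504 and 491 CPM with red blood cells and 219 to 294 CPM with saline. Of the 12, 9 were called by DESeq2 (1.39% of all genes), 0 by limma-voom (0.0605%) and 1 by edgeR (0.0605%), Adgre1, at an adjusted p of 0.0280. The edgeR call of Adgre1 was lost without saline 1, 2 or 3 (adjusted p = 0.132, 0.172 and 0.171) and with the replicate block (0.134). Over all genes, edgeR called 0.00681%, 0.00677% and 0.0068% without saline 1, 2 and 3, and 0.0135% with the block. Of the 13 neutrophil and monocyte markers 4 were tested, all 4 with positive fold changes, and edgeR called 0 of them. Of these 4, Csf3r alone had p under 0.05 before adjustment and was called by DESeq2, and limma-voom called 0. The other 9 were below the count filter or at 0, and no direction is given for them as a set. Among them, Ltf had 17 counts with red blood cells and 65 with saline, 41 of them in saline 4. The summed level of the 13 was 12.9, 401 and 14.485 CPM with red blood cells and 4.49 to 45.6 CPM with saline. Most of the 401 CPM was Lcn2 (307 CPM), and the neutrophil surface gene Ly6g had 0 counts in all 7 libraries. The part of these cells in the values of Adam8 and Mmp9 was not tested. Adam8 and Mmp9 did not follow one order: red blood cells 1 was high in Adam8 and low in Mmp9, and red blood cells 3 was the lowest of its group in Adam8 but not in Mmp9.

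Adam7, a gene best known from the epididymis, whose product lacks protease activity, was counted 59, 40 and 26 times in red blood cells 1 to 3, against 23, 11, 27 and 15 times in saline 1 to 4. In CPM these were 7.41, 6.05 and 4.71 against 3.40, 1.76, 3.23 and 3.47, without overlap between the groups. The log2 fold change was 1.04 ± 0.28 (SE, 95% interval 0.42 to 1.66, edgeR adjusted p = 0.180), with DESeq2 at an adjusted p of 0.248. The genes beside it on chromosome 14, Adam28 and Adamdec1, had 5 and 3 counts over all libraries. No exon of another gene in the table overlapped Adam7.

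Adam15, an ADAM of endothelium and epithelium that also binds integrins, had 43.9, 55.4 and 53.1 CPM with red blood cells and 42.6, 38.3, 36.7 and 45.6 CPM with saline. The groups overlapped, since red blood cells 1 lay below saline 4. Its log2 fold change was 0.32 ± 0.11 (SE, edgeR adjusted p = 0.289).

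Mmp15, a membrane-bound MMP, and Mmp2 were the members with negative fold changes at an unadjusted p under 0.05. Mmp15 had 224, 226 and 231 CPM with red blood cells and 269.8, 263, 238 and 270.3 CPM with saline. The red blood cell libraries were close together and below every saline library. The log2 fold change was -0.20 ± 0.06 (SE, 95% interval -0.34 to -0.06, edgeR adjusted p = 0.278). Mmp2 had 331, 355 and 373 CPM with red blood cells and 397, 372, 383 and 421 CPM in saline 1, 2, 4 and 3, where red blood cells 3 and saline 2 overlapped. Its log2 fold change was -0.16 ± 0.07 (SE, edgeR adjusted p = 0.471). The epithelial markers had the same sign in 9 of 10 genes, with log2 fold changes from -0.39 (Slc4a5) to 0.00 (Foxj1). Of 9 tested fibroblast and mesenchyme markers, 7 had positive and 2 negative fold changes (median log2 fold change 0.11). The part of either cell type in the values of Mmp15 and Mmp2 was not tested.

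**Figure D3:**
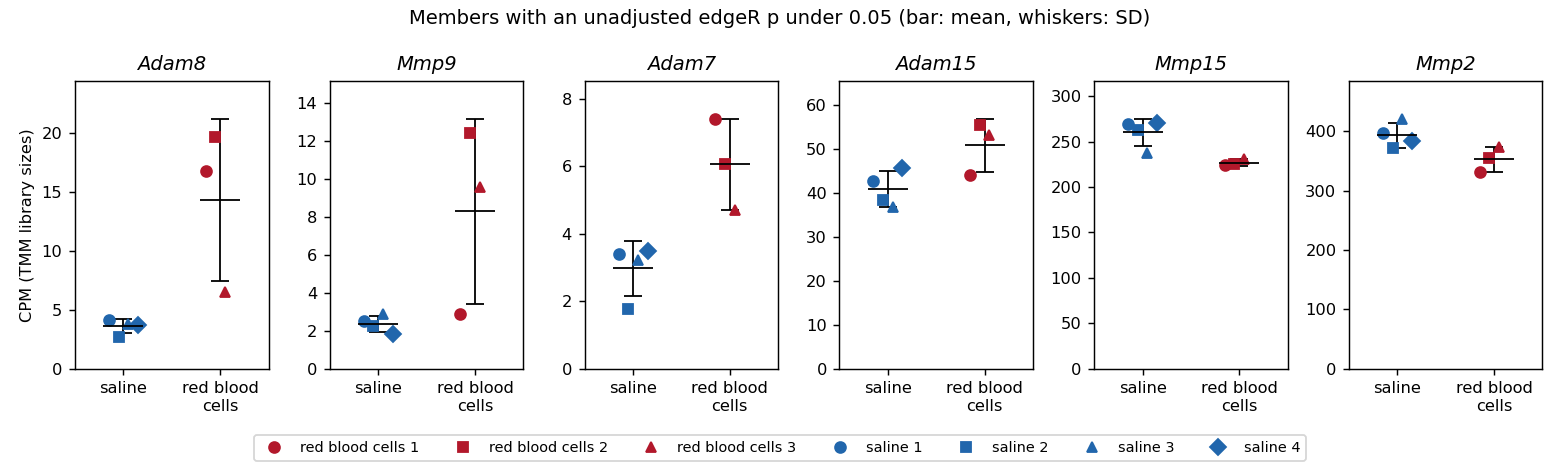
CPM of the 6 members with an unadjusted edgeR p under 0.05, each axis starting at 0, with a marker per library, the group mean as a bar and the SD as whiskers. The groups do not overlap for Adam8, Adam7 and Mmp15, overlap for Adam15 and Mmp2, and nearly touch for Mmp9, where red blood cells 1 had 2.89 CPM and saline 3 had 2.87 CPM.

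A further 4 membrane-bound MMP genes beside Mmp14 and Mmp15 were scarcer, and their groups overlapped. Mmp16, an activator of pro-MMP2, had 13.2 to 19.6 CPM with red blood cells and 13.2 to 24.6 CPM with saline. Mmp24, known from neurons, had the lowest log2 fold change among tested members, -0.58 ± 0.35 (SE), at 1.21 to 1.99 CPM against 1.39 to 2.89 CPM, and shares 14.8% of its exon bases with BC029722 on the opposite strand. Mmp17 and Mmp25, both held in the membrane by a lipid anchor, had -0.11 ± 0.41 and 0.23 ± 0.30 (SE). Mmp14 itself had a log2 fold change of 0.02 ± 0.08 (SE, 95% interval -0.16 to 0.20).

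Of the remaining tested MMP genes, Mmp11, an MMP of stroma, had 17.2, 18.5 and 26.8 CPM with red blood cells and 29.3, 21.02, 23.8 and 22.9 CPM with saline. Red blood cells 1 and 2 lay below all saline libraries and red blood cells 3 among them. Mmp28, the epithelial MMP epilysin, had 16.3, 14.2 and 23.2 CPM against 19.7, 21.2, 17.7 and 22.5 CPM, with red blood cells 1 and 2 below and red blood cells 3 above all saline libraries. Their log2 fold changes were -0.23 ± 0.17 and -0.18 ± 0.17 (SE). Mmp19 and Mmp23 had -0.14 ± 0.31 and 0.16 ± 0.28 (SE), at 8 CPM or less in every library.

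On GRCm39, Adam8 spans 139558845 to 139573016 of chromosome 7 (minus strand) and Adam7 68734785 to 68771138 of chromosome 14 (minus strand). Mmp9 spans 164782246 to 164797770 of chromosome 2 (plus strand), Adam15 89246947 to 89257589 of chromosome 3 (minus strand), Mmp15 96078924 to 96100921 and Mmp2 93553920 to 93580049 of chromosome 8 (both plus strand). Values of these genes are counts over all their exons.

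Among the inhibitors, the 3 tested TIMP genes had log2 fold changes between -0.06 and 0.10. An unadjusted edgeR p under 0.05 was reached by 0 of the 3 (9.54% of all genes). Timp2 had 548, 561 and 582 CPM with red blood cells and 605, 543, 627 and 541 CPM with saline. Timp3 had 570.2, 561 and 628 CPM and 588, 584, 679 and 601 CPM. The ranges overlapped for both genes, and the 95% intervals of their fold changes ran from 0.876 to 1.08 and from 0.857 to 1.07. Timp1, the TIMP that is known to be induced by cytokines, gave 18, 14 and 17 reads in red blood cells 1 to 3, against 11, 15, 25 and 9 in saline 1 to 4. Its log2 fold change was 0.10 ± 0.32 (SE), and the interval of the fold change, 0.657 to 1.74, is wide at these counts. Timp4 had 0 to 3 counts per library. A2m, the gene of the broad protease inhibitor alpha-2-macroglobulin, had 687, 789 and 381 CPM with red blood cells and 185, 149, 181 and 127 CPM with saline, without overlap. Its log2 fold change was 1.94 ± 0.28 (SE, edgeR adjusted p = 0.112, DESeq2 adjusted p = 2.5e-07, limma-voom adjusted p = 0.0433).

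The summed MMP level was 228, 233 and 257 CPM per kb with red blood cells and 263, 254, 262.1 and 262.1 CPM per kb with saline. The summed TIMP level was 276, 277 and 299 CPM per kb and 295, 278, 322 and 279.9 CPM per kb. The ratio of TIMP to MMP was 1.21, 1.19 and 1.16 in red blood cells 1 to 3, compared with 1.12, 1.09, 1.23 and 1.07 in saline 1 to 4. All 3 quantities overlapped between the groups, through red blood cells 3 for MMPs and saline 3 for the ratio. The summed ADAM level was 196 to 204 CPM per kb with red blood cells and 189 to 207 CPM per kb with saline. The summed ADAMTS level was 189, 198 and 173 CPM per kb with red blood cells and 155 to 179 CPM per kb with saline.

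**Figure D4:**
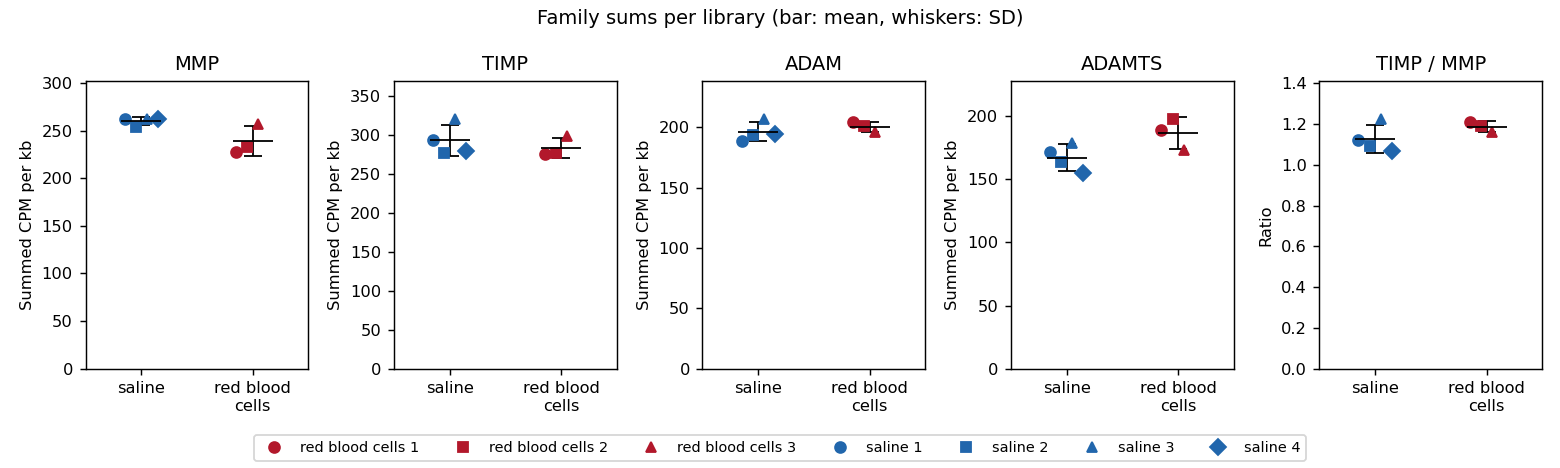
Summed CPM per kb of the MMP, TIMP, ADAM and ADAMTS genes and the ratio of the TIMP to the MMP sum in each library, all axes starting at 0, with means as bars and SD as whiskers. The libraries of the groups overlap in all 5 panels, the TIMP to MMP ratio being 1.16 to 1.21 with red blood cells and 1.07 to 1.23 with saline.

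The sheddases ADAM10 and ADAM17 act on Notch receptors, cadherins and cytokines. Adam10 had 301, 275 and 319 CPM with red blood cells and 305, 307, 355 and 309 CPM with saline. Adam17, the enzyme that releases tumour necrosis factor, had 184, 189.5 and 173 CPM and 159, 180.2, 180.4 and 183 CPM. Both overlapped between groups, with 95% intervals of the fold change from 0.834 to 1.05 and from 0.933 to 1.16. Adam9 (0.09 ± 0.07, SE) and Adam12 (-0.05 ± 0.08, SE), an ADAM of mesenchyme and muscle, had log2 fold changes near their errors. Adam19, a protease of heart and neural crest development, had 30.1 to 33.5 CPM with red blood cells and 28.4 to 33.7 CPM with saline. Adam11, Adam22 and Adam23, whose products lack the active site and act as binding proteins at synapses, had log2 fold changes of -0.49 ± 0.27, -0.22 ± 0.30 and -0.11 ± 0.17 (SE). Neuron and neural progenitor markers had a summed level of 165 to 291 CPM with red blood cells and 222 to 289 CPM with saline. Of the 10, 8 had negative fold changes, and the median log2 fold change was -0.68.

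Partners and substrates of these sheddases were taken from lists of known genes. The lists were chosen with earlier results of these data known, so their shares beside all genes are no test of enrichment. Of 12 tested partners, 0 were called by edgeR (0.0605% of all genes), DESeq2 (1.39%) or limma-voom (0.0605%). They include the tetraspanins that carry ADAM10 and the iRhom proteins that carry ADAM17. The median log2 fold change of the 12 was -0.01. Tspan5 alone had an edgeR p under 0.05 before adjustment (9.54% of all genes), with a log2 fold change of 0.22 ± 0.08 (SE). Of 20 tested substrates 1 was called by edgeR (0.0605% of all genes), Tgfa, a growth factor released by ADAM17. Tgfa had 18.0 ± 2.45 CPM with red blood cells (n = 3) and 32.9 ± 2.38 CPM with saline (SD, n = 4). This was -0.88 ± 0.12 (SE) on the log2 scale (edgeR adjusted p = 0.0280, also called by DESeq2 and limma-voom). Its edgeR call held without red blood cells 2 or 3 and was lost without any 1 of the other 5 libraries (adjusted p from 0.0580 to 0.171) and with the replicate block (0.180). Over all genes, edgeR called 0.225% and 1.86% in the fits where it held, and 0.00677% to 0.112% in those where it was lost. Substrate genes at an unadjusted p under 0.05 were 5 higher (Icam1, Vcam1, Csf1r, Tnfrsf1a and Tnfrsf1b) and 3 lower (Tgfa, L1cam and Efna5), where 5.22% of all genes were higher and 4.32% lower, and DESeq2 called 3 higher and 1 lower (1.39% of all genes in either direction).

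Among the ADAMTS genes 9 had positive and 8 negative fold changes. For 0 of 17 was p under 0.05 in edgeR before adjustment (9.54% of all genes). DESeq2 (1.39% of all genes) and limma-voom (0.0605%) called 0 of them. Adamts1 was nearest, with 589, 624 and 482 CPM with red blood cells and 515, 448, 535 and 457 CPM with saline. Red blood cells 3 fell within the saline range. The log2 fold change was 0.21 ± 0.10 (SE, 95% interval -0.0011 to 0.42, unadjusted p = 0.0510). The other proteoglycan-cleaving genes ran from -0.15 (Adamts4) to 0.65 (Adamts8, 0.65 ± 0.37, SE), and the procollagen N-proteinase genes Adamts2, Adamts3 and Adamts14, which trim collagen precursors, had 0.37 ± 0.22, -0.37 ± 0.37 and 0.30 ± 0.28 (SE).

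The remaining ADAMTS genes overlapped between the groups. Adamts5 had 148 to 164 CPM with red blood cells and 131 to 169 CPM with saline (log2 fold change 0.12 ± 0.09, SE). Adamts9, a proteoglycan-cleaving member expressed in vessels and mesenchyme, had 91.6 to 127 CPM and 90.1 to 107 CPM (0.16 ± 0.11, SE). Adamts10, which binds fibrillin, had 45.8 to 59.2 CPM and 50.7 to 57.4 CPM (-0.10 ± 0.10, SE). These 3 genes had narrow errors, whereas those of Adamts16 (0.07 ± 0.72, SE) and Adamts18 (-0.27 ± 0.60, SE) were wide. Adamts16 had 7, 4 and 22 counts in red blood cells 1 to 3 and 20, 3, 15 and 5 in saline 1 to 4, a wide spread within each group. Below the count filter, Adamts19 had 36 counts in all, 13 of them in saline 2, and Adamts13, the protease of von Willebrand factor, had 3.

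Adamts12, which cuts cartilage oligomeric matrix protein, had 83.5, 91.7 and 140 CPM in red blood cells 1, 2 and 3, against 98.4, 91.3, 102 and 87.3 CPM with saline. Red blood cells 3 stood above all others. Without it the log2 fold change of Adamts12 changed sign, from 0.14 to -0.11. In that library fibroblast and mesenchyme markers were highest (above), and so were those of endothelium (1224 CPM, against 828 to 1027 CPM elsewhere) and of pericytes and smooth muscle (640.2 CPM, against 391 to 508 CPM). Mmp14 was also highest in red blood cells 3 (219 CPM, against 172 to 205 CPM elsewhere). Adamts1 (482 CPM, against 589 and 624 CPM) and Adamts9 (91.6 CPM, against 109 and 127 CPM) were lower there than in red blood cells 1 and 2. The part of tissue makeup in these values was not tested.

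Of 16 tested substrates on the list of lecticans and other ADAMTS targets, 0 passed in edgeR and 3 reached p under 0.05 before adjustment, all lower and all called by DESeq2. These were 18.8% of the list, where 9.54% of all genes reached that p (4.32% lower) and DESeq2 called 1.39%. These were Bcan, the brain proteoglycan brevican, the matrix protein gene Reln and the fibrillin gene Fbn1. Limma-voom called 0. Bcan had 0.753, 1.51 and 2.35 CPM with red blood cells and 10.5, 5.29, 5.50 and 3.24 CPM with saline. Fbn1 had 597, 561 and 582 CPM and 944, 722, 949 and 686 CPM. The groups did not overlap for 4 of the 16 tested genes of the list (25%, all lower), against 9.59% of all genes. Bcan, Reln and Fbn1 were among the 4. Of 15 tested activators, receptors and inhibitors edgeR called 0, while 3 were higher (A2m, Plaur and Cd44) and 3 lower (Lrp1, Bsg and Pcsk5) at an unadjusted p under 0.05 (40.0% of the list, against 9.54% of all genes), and DESeq2 called A2m, Cd44 and Lrp1. Reck, the membrane anchor that restrains several MMPs, had a log2 fold change of 0.10 ± 0.09 (SE). Of 18 tested other matrix proteases and ADAMTS-like genes edgeR called 0, while 5 reached p under 0.05 before adjustment (27.8%, against 9.54% of all genes), and DESeq2 called Ctss, Adamtsl1 (both higher) and Htra3 (lower). Limma-voom called A2m on the former list and 0 genes on the latter. These lists too were chosen with earlier results known, so their shares are no test of enrichment.

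Nearly all MMP genes below the count filter (10 of 11) lie together. On GRCm39, 10 of the 23 MMP genes occupy 7272514 to 7699586 of chromosome 9, a span of 427.1 kb, in the order Mmp13, Mmp12, Mmp1b, Mmp3, Mmp1a, Mmp10, Mmp8, Mmp27, Mmp20 and Mmp7. They include the collagenases (Mmp1a, Mmp1b, Mmp8 and Mmp13), the stromelysins Mmp3 and Mmp10, the macrophage elastase gene Mmp12 and the matrilysin gene Mmp7. The whole cluster had 113 counts over the 7 libraries, and none of its genes passed the count filter. Of the 13 MMP genes elsewhere 12 were tested.

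Counts in the cluster came from single libraries. Saline 4 held 45 of the 113 counts, with 18 of Mmp3, 10 of Mmp13, 8 of Mmp12, 7 of Mmp10 and 2 of Mmp7. Mmp3, Mmp10 and Mmp7 had 0 counts in each of the other 6 libraries. Red blood cells 2 held 34 counts, 31 of them of Mmp8, which had 3 and 0 counts in red blood cells 1 and 3 and 1, 0, 0 and 0 with saline. Red blood cells 1 held 26 counts, 22 of Mmp12, which had 3 and 3 counts in red blood cells 2 and 3 and 1, 0, 0 and 8 with saline. The other 4 libraries, saline 1 to 3 and red blood cells 3, held between 0 and 3 counts each. Since most counts of each gene came from 1 library, no direction between the groups is given. DESeq2 gave adjusted p-values of 0.147 for Mmp8 and 1 for Mmp3 and Mmp12.

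Saline 4 and red blood cells 2 also stood apart in other genes. Saline 4 had 1768 counts of the complement gene C3 and 41 of Ltf, a gene of neutrophil granules and glands, with 6 to 105 counts of C3 in the libraries other than saline 4 and red blood cells 2. Red blood cells 2 had 2009 counts of C3, 2030 of Lcn2, 294 of S100a9 and 49 of the neutrophil chemokine receptor gene Cxcr2, against 1 to 6 counts of Cxcr2 elsewhere. Of the liver genes, saline 4 held all 228 counts of Plg and 344 of 347 counts of Serpinf2, the gene of alpha-2-antiplasmin. Whether other tissue was included in the saline 4 pool was not tested, nor was the relation of any of these genes to the MMP counts.

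**Figure D5:**
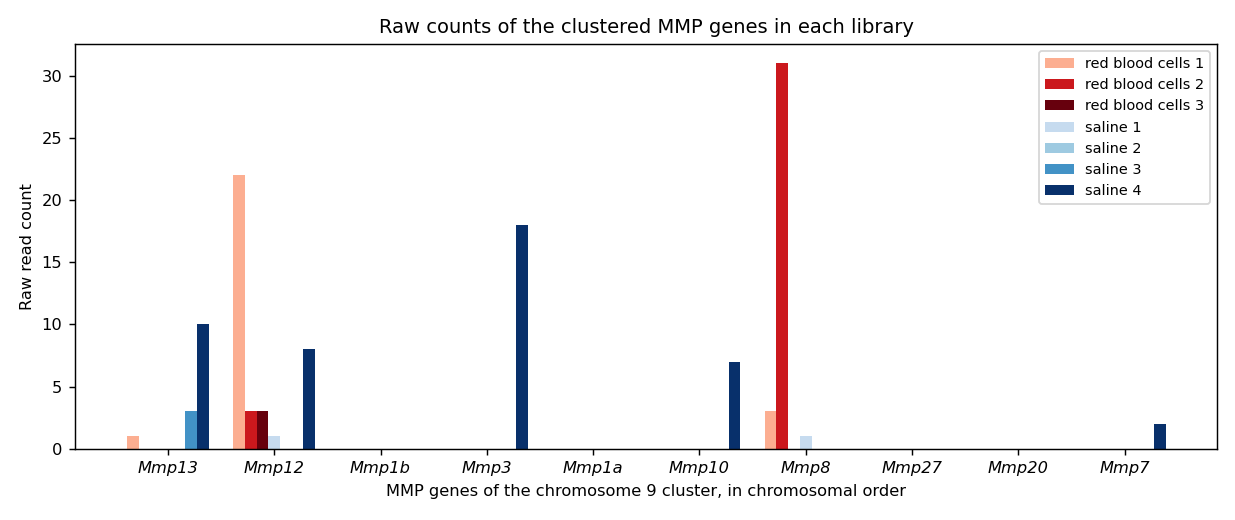
Raw read counts of the 10 MMP genes of the chromosome 9 cluster, in chromosomal order, with a bar for each of the 7 libraries. Saline 4 carries Mmp3, Mmp13, Mmp10, Mmp7 and part of Mmp12, red blood cells 2 carries Mmp8, and red blood cells 1 most of Mmp12.

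Start regions of the clustered genes are printed because many MMP genes are classical targets of AP-1, the dimer of Fos and Jun proteins. RefSeq promoter sequences (GRCm38.p6, 250 bases before to 50 after a start) were matched by symbol for 50 of 80 members. The AP-1 site TGACTCA, searched on both strands (so also as TGAGTCA), lay in the windows of 7 of the 10 clustered genes and of 3 of 40 other matched members, where 5.2% of all 32851 promoter windows and 5.95% of gene symbols held it. The looser TGANTCA, which includes it, was held by 8 of 10, 5 of 40 and 7.81% of windows. The 100 bases before a start follow, 5′ to 3′, for the 6 clustered genes with counts, with the site in capitals and GRCm38.p6 coordinates. For Mmp12 and Mmp7, which have 2 starts each in the table, the start with the site is shown.
Mmp13 (chr9:7272414-7272513, plus strand): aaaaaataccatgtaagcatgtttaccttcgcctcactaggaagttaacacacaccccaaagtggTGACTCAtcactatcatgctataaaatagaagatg
Mmp12 (chr9:7347274-7347373, plus strand): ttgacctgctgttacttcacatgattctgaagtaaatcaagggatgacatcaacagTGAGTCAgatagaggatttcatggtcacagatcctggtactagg
Mmp3 (chr9:7445722-7445821, plus strand): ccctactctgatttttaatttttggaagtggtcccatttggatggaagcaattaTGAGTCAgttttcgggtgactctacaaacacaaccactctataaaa
Mmp10 (chr9:7502242-7502341, plus strand): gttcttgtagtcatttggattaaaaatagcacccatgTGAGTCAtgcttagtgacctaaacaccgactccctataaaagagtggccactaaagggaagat
Mmp7 (chr9:7691990-7692089, plus strand): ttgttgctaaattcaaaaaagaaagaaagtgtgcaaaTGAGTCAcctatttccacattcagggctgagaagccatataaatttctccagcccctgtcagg
Mmp8 (chr9:7558329-7558428, plus strand): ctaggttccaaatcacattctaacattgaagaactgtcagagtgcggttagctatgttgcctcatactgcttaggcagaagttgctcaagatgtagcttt
The site began 35 bases before the start in Mmp13, 44 in Mmp12, 46 in Mmp3 and 63 in Mmp10 and Mmp7. The 5 clustered genes with counts in saline 4 held it, among them Mmp12, with 8 counts there and 22 in red blood cells 1. Mmp1a and Mmp1b, which had 0 counts, held it too. Mmp8, seen in red blood cells 2, did not hold it in its window, and neither did Timp1 or Adam8. The clustered genes are neighbours of the same family, so their matches are not independent. A match describes these letters and shows no binding, and its relation to the counts was not tested.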

How the data were processed

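Poly(A) RNA of 7 choroid plexus libraries (3 red blood cells, 4 saline) was read from the deposited table of raw counts per gene. Tools listed in the submitters' processing notes are STAR 2.6.1b, cutadapt 2.5 and featureCounts 2.0.6, with the build GRCm39, and the library kit was directional per the labels' protocols. The sources used here do not give the annotation release or the strand and multi-mapping settings. Without them, values of overlapping or antisense genes are uncertain, here chiefly Mmp19 and Mmp24, with 30.7% and 14.8% of exon bases shared with Tmem198b and BC029722. The exon length per gene, also deposited, gave CPM per kb. Lines of 6 genes, none a member, were broken and left out, leaving 40873 genes.

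Counts were tested with edgeR 4.0.16 (quasi-likelihood F test, robust, two-sided, TMM, filterByExpr, no block) under R 4.3.3 on 14869 genes, with Benjamini-Hochberg adjustment over all of them and a threshold of 0.05. Standard errors come from the F statistic. CPM of genes use TMM library sizes. Alternatives were DESeq2 1.42.0, limma-voom (limma 3.58.1), RLE and upper-quartile scaling, other count filters, a fit without robust estimation, a replicate block, a threshold of 0.10 and each library left out. Leaving out red blood cells 2 and saline 4 together was added after seeing the data. Tests were tried on simulated counts. Replicate numbers were not used as pairs (see the dependence on processing).

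Members and lists were chosen with earlier results of these data known. Named members were 14 set by name, those with an unadjusted p under 0.05, the 5 most abundant MMP, ADAM and ADAMTS genes, and those below the filter with at least 20 counts, mostly in 1 group. Mmp7, Mmp10, Mmp13 and the remaining members named were picked once their values had been seen. Figures used matplotlib 3.10.9.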

Additional observations from a re-analysis of the deposited data

Results flagged for a closer look

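Among the 25 named members, the saline libraries of 6 had 1 library far from the other 3 by Dixon's ratio. Chance flags about 1 in 20 groups of continuous values, a rate that does not hold for Mmp3, Mmp8 and Mmp12, whose other saline libraries were at or near 0, so the 6 cannot be set against it. Mmp3 had 4.17 CPM in saline 4 and 0 in saline 1 to 3. Mmp12 had 1.85 CPM in saline 4, against 0 to 0.148 CPM. Mmp8 had 0.148 CPM in saline 1, which is a single read, and 0 in the others. Adam10 had 355 CPM in saline 3, against 305 to 309 CPM. Adam17 had 159 CPM in saline 1, against 180.2 to 183 CPM. Adam7 had 1.76 CPM in saline 2, against 3.23 to 3.47 CPM, and without saline 2 its log2 fold change was 0.85 (edgeR adjusted p = 0.383).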

How the results depend on the processing

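The number of members past the edgeR threshold was 0. It was 2 with DESeq2 (Mmp9 and Adam8), 1 without a count filter (Adam8), 1 at a threshold of 0.10 (Adam8), and 0 to 1 with each library left out (Mmp9 without red blood cells 1, Adam8 without red blood cells 3). It stayed 0 with limma-voom, both other scalings, the stricter filter, the fit without robust estimation, and without red blood cells 2 and saline 4 together, where Adam8 had 1.73 (adjusted p = 0.189) and Mmp9 1.24 (adjusted p = 0.555). Replicate numbers shared by the groups were not used as pairs. Deviations of same-numbered libraries correlated at -0.008, -0.173 and -0.173 across genes, and those of differently numbered libraries at -0.213 to 0.261. So few values cannot show or exclude a pairing. With the replicate block 0 members passed, against 2 genes over all and 9 without it. In that fit saline 4, the only library with its number, adds nothing to the difference between the groups. Calls lost with the block therefore rest on fewer libraries. Over all genes DESeq2 called 280, and edgeR 136 without a count filter.

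Of 336 values of the 21 named members tested, 327 kept their sign. With single libraries left out, Adam12 ran from -0.13 to 0.014, Adamts12 from -0.11 to 0.29, Mmp14 from -0.074 to 0.10, Timp1 from -0.070 to 0.28 and Timp2 from -0.074 to 0.0074. Without red blood cells 2 and saline 4 Adam12 had 0.015 and Mmp28 0.012. The cause was not tested. The 18 members below the filter had 1 to 66 counts each over all libraries and were not tested in edgeR with that filter.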
